A study of Mus musculus with 18 samples.

Results

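The myelin and mature oligodendrocyte genes are 33 genes that oligodendrocytes use to build and keep myelin, chosen by name for these roles. Of the 33, 31 had a probe that carries their symbol alone, and 28 of these passed the detection filter among 11465 genes tested across the series. Enpp2 and Plekhh1 were not analysed here because no such probe was found, and Gjb1, Myrf and Ermn had probes that were detected on too few arrays.

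The samples were dissected subventricular zone (SVZ), a neurogenic layer that borders the lateral ventricles, from 9 Tam-Idh1-KI and 9 control mice of strain c57bl6, with 1 Illumina Mouse WG6-v2 array per mouse. Tam-Idh1-KI mice carried the inducible Nes-CreER(T2) driver and 1 floxed *Idh1* allele with the R132H mutation of glioma, and controls were *Idh1*+/+ littermates with or without the driver. All were injected with tamoxifen at 50 mg/kg on 5 days at 5 to 6 weeks of age. Arrays of 6 mice per group were hybridised on a first day (ages 5 to 6 months in each group) and of 3 per group on a second day (ages 7 to 9 months in each group), so that day and age cannot be told apart. On the first day each group held 4 males and 2 females, and on the second day 3 Tam-Idh1-KI females were set against 1 control female and 2 control males. The nestin driver recombines neural stem cells of the SVZ and hippocampus, so the mutation reaches the cells that descend from them, and the study also describes some activity of the allele without recombination.

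Oligodendrocytes are the glial cells that wrap axons of the central nervous system in myelin, a stack of lipid-rich membrane that speeds conduction. They arise from precursor cells, and a small part of the precursors in the corpus callosum and striatum comes from the SVZ. Mature cells express the genes of compact myelin, of its junctions with the axon and of its lipids together, under transcription factors that include SOX10 and MYRF. The SVZ lies against the myelinated corpus callosum and striatum, so dissected SVZ can carry their RNA.

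Values are log2 signals after neqc normalization, and a log2 fold change is Tam-Idh1-KI minus control, fitted by limma beside day and sex and given with its standard error (SE). The mean raw signal of an array was 460.2 to 905 in Tam-Idh1-KI mice and 454 to 679 in control mice, and 46.3% to 50.7% of probes were detected in Tam-Idh1-KI mice and 44.6% to 50.9% in control mice. The mRNA of *Idh1* was at 9.39 in Tam-Idh1-KI and 9.74 in control mice on average (log2 fold change -0.37, SE 0.10, adjusted p = 0.212). Whether its probe tells the R132H allele apart is not known here. *Mbp*, *Mobp*, *Mog* and *Mag* were detected on all 18 arrays. The labels do not say which mice shared a litter, and p-values measure the spread between these mice.

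No myelin or oligodendrocyte gene passed an adjusted p of 0.05 between Tam-Idh1-KI and control SVZ: 0 of 28 did, where 0.174% of all genes tested (11 higher and 9 lower) passed. The 28 genes leaned to one side, with 27 positive and 1 negative log2 fold change, where 54.5% of all genes were positive. Their median log2 fold change was 0.21 (range -0.20 to 0.73), against 0.013 over all genes. At an unadjusted p under 0.05, 6 of 28 were higher in Tam-Idh1-KI mice and 0 lower, where the shares over all genes were 6.43% higher and 3.14% lower, and the smallest adjusted p of the 28 was 0.448. The 6 were *Gsn*, *Lpar1*, *Ugt8a*, *Evi2a*, *Sirt2* and *Mbp*. This count was 0 with genotype as the only term and 14 with array weights, and with 1 mouse left out it ran from 0 (without Tam-Idh1-KI replicate 3 or 4) to 14 (without Tam-Idh1-KI replicate 6). The genes share arrays and vary together, so 28 positions are not 28 independent observations, and in bulk tissue a change in the number of oligodendrocytes and a change in RNA per cell cannot be told apart. How far the lean rests on single mice is given below by mouse.

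**Figure D1:**
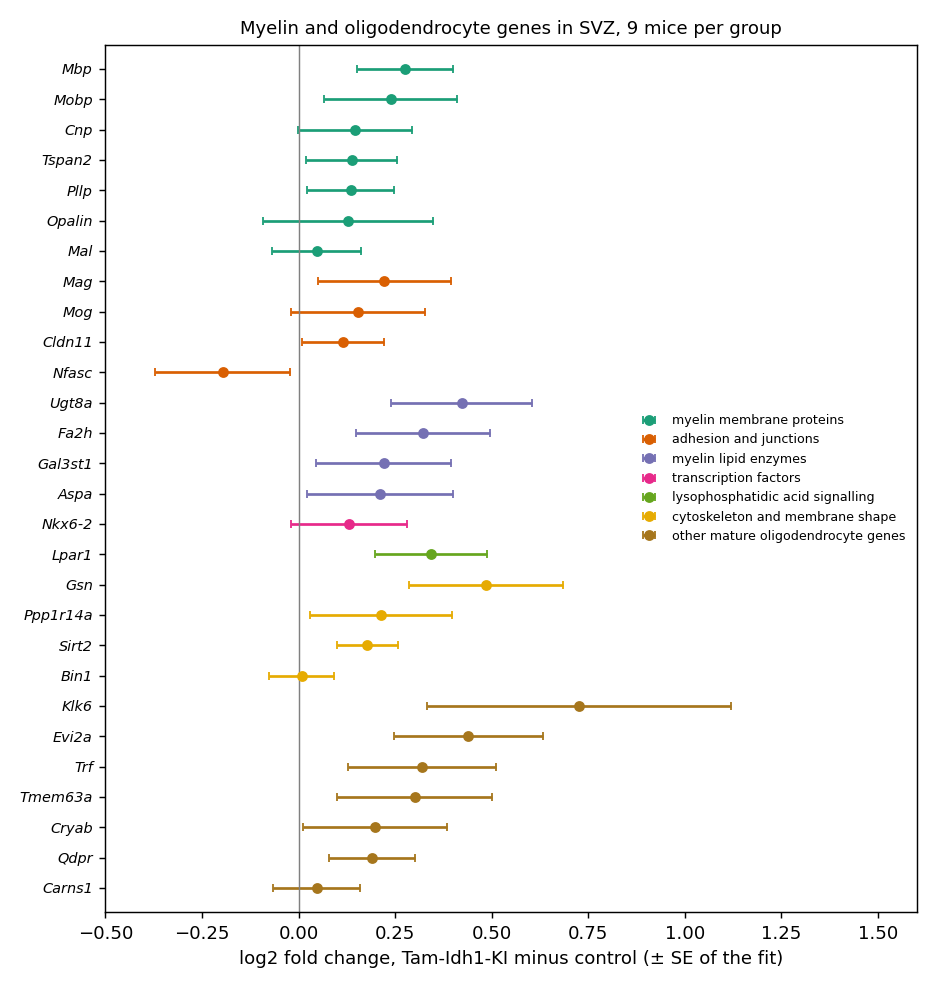
Log2 fold change (Tam-Idh1-KI minus control, horizontal axis, log2 units) of each of the 28 tested genes, with bars of 1 SE of the limma fit and colours for role groups. All points but that of Nfasc lie right of 0, from 0.0086 for Bin1 to 0.73 for Klk6, and none passed the adjusted threshold.

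Among the 7 membrane proteins of myelin, all 7 log2 fold changes were positive, with a median of 0.14 and 0 past the threshold. *Mbp* encodes myelin basic protein, which holds the inner faces of the compacted membrane together. Its log2 signal was 13.37 at the lowest, 14.16 at the median and 14.70 at the highest in Tam-Idh1-KI mice, against 12.77, 14.15 and 14.42 in control mice. The ranges overlapped, the medians were nearly equal, and the second-day mice were the lowest of each group. The fitted log2 fold change was 0.27 (SE 0.12, adjusted p = 0.503), and 7 of 9 Tam-Idh1-KI mice lay above the control mean of their own day. Group means differed by 0.11 among first-day mice and by 0.54 among second-day mice.

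*Mbp* had 5 detected probes, which disagreed in direction: 4 gave log2 fold changes of 0.26 to 0.31 and the other gave -0.15. Alternative first exons and splicing give this locus several transcripts, and which of them each probe reads is not known here. *Mobp* encodes a further small basic protein of compact myelin, and its 5 detected probes ran one way, between 0.14 and 0.25. Its signal was 11.37, 11.95 and 12.83 (lowest, median, highest) in Tam-Idh1-KI mice, against 11.25, 11.74 and 12.26 in control mice. The 2 highest Tam-Idh1-KI mice exceeded every control mouse, and the lowest first-day mouse of all 12 was also a Tam-Idh1-KI mouse (log2 fold change 0.24, SE 0.17, adjusted p = 0.742).

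*Cnp* encodes the cyclic nucleotide phosphodiesterase of the uncompacted membrane. It reached 10.05, 10.95 and 12.05 in Tam-Idh1-KI mice, against 9.81, 11.19 and 11.63 in control mice, with a fitted log2 fold change of 0.15 (SE 0.15, adjusted p = 0.853). The Tam-Idh1-KI median lay below the control median, although the fitted difference was positive. The remaining membrane genes differed by less than 2 SE: *Tspan2*, a tetraspanin, was at 0.14 (SE 0.12), *Pllp*, which encodes plasmolipin, at 0.14 (SE 0.11), *Opalin*, a sialylated protein of oligodendrocytes, at 0.13 (SE 0.22), and *Mal*, which takes part in sorting myelin membrane, at 0.05 (SE 0.12). The second detected probe of *Mal* gave 0.26.

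Of the 5 genes of adhesion and junctions, 4 were tested, 3 of them positive. *Mog* encodes a glycoprotein of the outermost myelin surface. It was at 8.88, 9.78 and 11.01 in Tam-Idh1-KI mice, against 8.69, 9.97 and 10.57 in control mice, and again the Tam-Idh1-KI median was the lower of the pair (log2 fold change 0.15, SE 0.17, adjusted p = 0.873). *Mag*, whose product faces the axon, was at 11.34, 12.003 and 13.06 in Tam-Idh1-KI mice, against 11.12, 12.02 and 12.64 in control mice. The fitted difference of *Mag* was 0.22 (SE 0.17, adjusted p = 0.770), and its weaker probe gave 0.37.

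*Cldn11* encodes the claudin of the tight junctions that seal myelin layers. Its signal was 13.38, 13.69 and 14.14 in Tam-Idh1-KI mice, against 13.52, 13.62 and 13.82 in control mice. The control values spanned a narrower range that lay inside that of Tam-Idh1-KI mice, and the log2 fold change was 0.12 (SE 0.11, adjusted p = 0.827). The probe of *Gjb1*, connexin 32 of gap junctions, was detected in 4 Tam-Idh1-KI and 3 control mice and was not tested.

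*Nfasc* was the only gene of the 28 with a negative log2 fold change. It encodes neurofascin, whose glial form sits at the paranode, where myelin loops meet the axon, and whose neuronal form sits at the node. Its signal was 6.33, 6.85 and 7.32 in Tam-Idh1-KI mice, against 6.67, 6.77 and 7.98 in control mice. The 2 highest values were control mice, the 3 lowest were Tam-Idh1-KI mice, and the medians ran opposite to the fitted difference of -0.20 (SE 0.17, adjusted p = 0.816). All 3 detected probes were negative (-0.22 to -0.08). Neurons and oligodendrocytes each express this gene, and its probes were not assigned to either form.

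The promoters of 4 of these genes are shown because the 4 genes varied together across mice more closely than most others. They are taken from RefSeq on GRCm38.p6, each from 250 bases before to 50 after a transcription start, and capitals mark the SOX core ACAAAG or the MYRF motif CTGGNAC on either strand.
Mobp (chr9:120149492-120149791, plus strand): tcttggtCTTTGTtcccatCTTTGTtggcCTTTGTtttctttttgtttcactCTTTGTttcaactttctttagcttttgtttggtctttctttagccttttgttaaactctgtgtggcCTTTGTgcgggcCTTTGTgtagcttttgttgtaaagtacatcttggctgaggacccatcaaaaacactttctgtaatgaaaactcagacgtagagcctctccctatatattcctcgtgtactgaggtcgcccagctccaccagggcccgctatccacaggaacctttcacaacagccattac
Mog (chr17:37023349-37023648, minus strand): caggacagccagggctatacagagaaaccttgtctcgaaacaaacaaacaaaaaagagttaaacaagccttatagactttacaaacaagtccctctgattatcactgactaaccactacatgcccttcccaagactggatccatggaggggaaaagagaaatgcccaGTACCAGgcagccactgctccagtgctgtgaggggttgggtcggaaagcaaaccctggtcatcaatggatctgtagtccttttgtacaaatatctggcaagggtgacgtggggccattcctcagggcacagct
Mag (chr7:30914814-30915113, minus strand, 1 of 3 starts listed): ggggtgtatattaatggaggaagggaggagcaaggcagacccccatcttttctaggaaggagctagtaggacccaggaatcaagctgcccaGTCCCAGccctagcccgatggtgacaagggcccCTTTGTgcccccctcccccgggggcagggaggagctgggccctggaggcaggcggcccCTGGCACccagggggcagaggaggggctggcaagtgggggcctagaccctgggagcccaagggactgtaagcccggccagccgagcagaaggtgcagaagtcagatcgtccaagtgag
Cldn11 (chr3:31149670-31149969, plus strand): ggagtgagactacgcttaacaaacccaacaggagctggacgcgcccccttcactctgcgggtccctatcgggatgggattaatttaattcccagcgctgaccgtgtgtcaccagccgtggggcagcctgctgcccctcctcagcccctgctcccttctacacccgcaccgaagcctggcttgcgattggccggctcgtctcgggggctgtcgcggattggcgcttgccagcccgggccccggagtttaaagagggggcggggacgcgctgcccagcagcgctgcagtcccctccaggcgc
The *Mobp* window held 6 matches to the SOX core, the *Mag* window 1 match to it and 2 to the MYRF motif, the *Mog* window 1 to the MYRF motif, and the *Cldn11* window none of either. Across the 38 promoters listed for 24 of the 33 genes, tested or not, ACAAAG stood in 31.6%, against 18.7% of all 32851 promoters of this length, and CTGGNAC in 31.6%, against 19.3%. Every listed start was counted, so genes with several starts counted more than once, and windows of *Mag* overlap and share their matches. The E-box CAGCTG stood in 13.2%, against 16.3%, and the TATA box TATAAA in 5.26%, against 13.6%, all on both strands. None of the motifs overlap in the 4 windows shown, and a match is a run of letters, not a bound site. *Nfasc* had no match to the first 2 motifs in its 2 listed promoters.

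The 4 enzymes of myelin lipids were all positive, with a median log2 fold change of 0.27 and 0 past the threshold. *Ugt8a* makes galactosylceramide, the main glycolipid of myelin. Its signal was 9.19, 10.004 and 10.90 in Tam-Idh1-KI mice, against 9.41, 9.66 and 10.20 in control mice. In 8 of 9 Tam-Idh1-KI mice it was above the control mean of the day, while the lowest of all 18 values was also a Tam-Idh1-KI mouse (log2 fold change 0.42, SE 0.18, adjusted p = 0.473). Its weaker probe gave 0.44 and was detected in 7 Tam-Idh1-KI and 2 control mice. That probe met the filter of 9 arrays mainly through Tam-Idh1-KI mice, so its positive sign adds no support.

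*Fa2h*, which hydroxylates the fatty acids of these lipids, was at 0.32 (SE 0.17, adjusted p = 0.603), with group means that differed by 0.40 among first-day mice and by -0.03 among second-day mice. With sex adjusted for, its second-day difference was 0.05. *Gal3st1*, which turns galactosylceramide into sulfatide, was at 0.22 (SE 0.17). *Aspa*, which frees acetate from N-acetylaspartate for lipid synthesis, was at 0.21 (SE 0.19) on a probe detected on 13 of 18 arrays, and at 0.07 without background correction. Each of these differences was less than 2 SE.

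For the 2 transcription factors the arrays say little. The 2 probes of *Myrf*, which switches on the myelin programme, were detected in 1 Tam-Idh1-KI and 3 control mice and in 0 mice, so neither passed the filter and no level is given. *Nkx6-2*, a homeobox factor of maturing oligodendrocytes, was at 0.13 (SE 0.15, adjusted p = 0.876), and its second probe gave 0.29. In signalling by lysophosphatidic acid, *Lpar1*, a receptor for this lipid, was at 8.58, 9.40 and 9.87 in Tam-Idh1-KI mice, against 8.38, 8.88 and 9.62 in control mice. Its log2 fold change was 0.34 (SE 0.15, adjusted p = 0.470), with 7 of 9 Tam-Idh1-KI mice above the control mean of their day and day differences of 0.32 and 0.29, and its second probe gave 0.50. The gene of the enzyme that makes the lipid, *Enpp2*, was not analysed here.

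Of the 6 genes of the cytoskeleton and membrane shape, 4 were tested and all 4 were positive. *Gsn* encodes gelsolin, which severs actin filaments, and had the smallest p of the 28 genes. It was at 5.45, 7.27 and 8.14 in Tam-Idh1-KI mice, against 4.84, 6.60 and 7.33 in control mice. The 3 highest values were Tam-Idh1-KI mice of the first day (log2 fold change 0.48, SE 0.20, adjusted p = 0.448). This brightest probe gave 0.24 without background correction, and the weaker probe of *Gsn* gave 0.05 with it. Gelsolin is also made by other cells. Its group means differed by 0.54 on the first day and by 0.12 on the second, where the groups differed in sex. The second-day fit adjusted for sex gave 0.83, with 1 control female. The interaction of genotype with day was -0.20 (SE 0.45).

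*Sirt2*, a tubulin deacetylase, was the only one of the 28 genes above the control mean of the day in all 9 Tam-Idh1-KI mice. Its log2 fold change was small, at 0.18 (SE 0.079, adjusted p = 0.488). *Bin1*, which bends membranes, was at 10.14, 11.29 and 11.59 in Tam-Idh1-KI mice, against 10.33, 11.31 and 11.73 in control mice, and its 3 probes disagreed: the brightest gave 0.0086 and the others 0.14 and -0.13. *Ppp1r14a*, an inhibitor of protein phosphatase 1, was at 0.21 (SE 0.18). The probe of *Ermn*, which binds actin in oligodendrocyte processes, was detected on 0 of 18 arrays.

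The other 7 mature oligodendrocyte genes were all positive, with a median log2 fold change of 0.30. *Evi2a*, a membrane protein gene inside an intron of *Nf1*, was at 9.85, 10.31 and 11.43 in Tam-Idh1-KI mice, against 9.78, 9.95 and 10.60 in control mice (log2 fold change 0.44, SE 0.19, adjusted p = 0.484). *Klk6*, a secreted serine protease, had the largest log2 fold change of the 28, 0.73, with the largest SE, 0.39 (adjusted p = 0.609), and was at 0.43 without background correction. Its signal was 5.86, 6.91 and 9.05 in Tam-Idh1-KI mice, against 5.84, 6.69 and 7.93 in control mice, and the 2 highest values, 9.05 and 8.94, were those of Tam-Idh1-KI replicates 3 and 4.

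The rest of this set gave 0.32 for *Trf* (transferrin, SE 0.19), 0.30 for *Tmem63a* (a channel opened by stretch, SE 0.20), 0.20 for *Cryab* (a small heat shock protein, SE 0.19), 0.19 for *Qdpr* (which recycles tetrahydrobiopterin, SE 0.11) and 0.05 for *Carns1* (which makes carnosine, SE 0.11). None of these differences reached 2 SE. Over the whole set of 33 genes, 52 of 61 probes were detected, and 47 of these 52 had a positive log2 fold change. Over all genes, by brightest probe, 54.5% were positive, and the share over all detected probes is not given here. In 14 of the 16 genes with over 1 detected probe the probes had 1 sign, the exceptions being *Mbp* and *Bin1*. Probes of 1 gene read the same mice, and the weaker *Ugt8a* probe is in both counts, so they add no support to the lean.

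**Figure D2:**
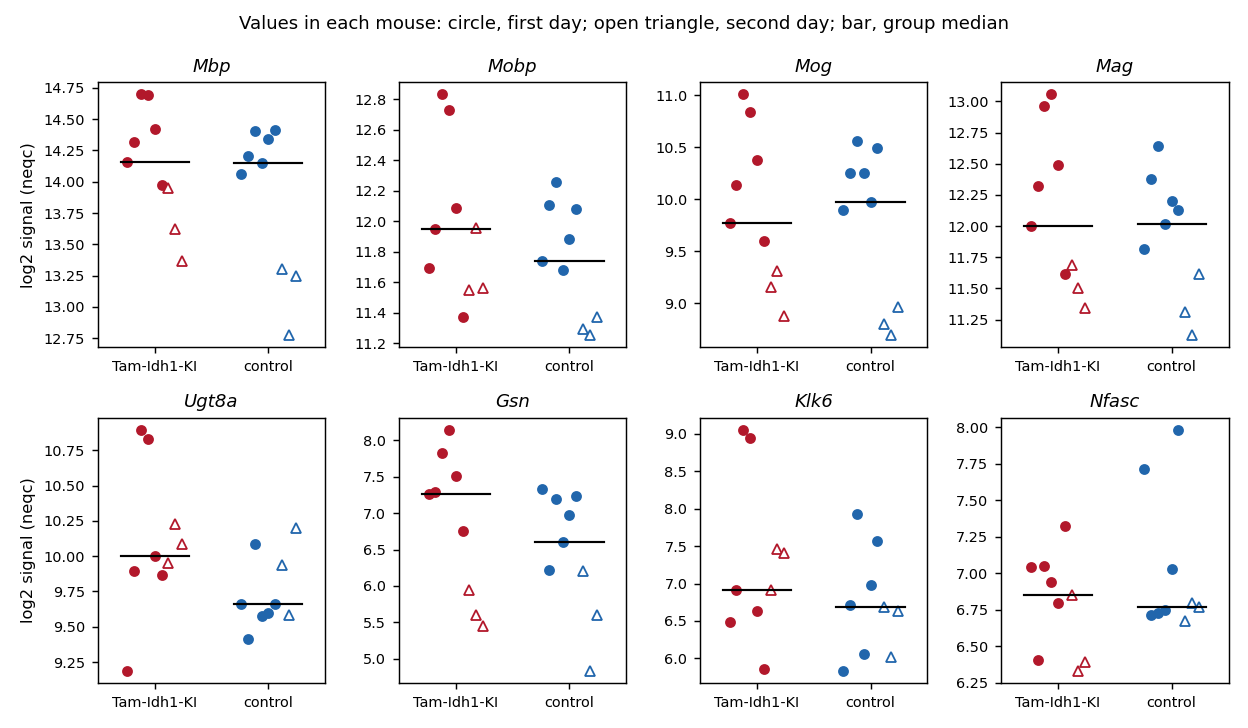
Log2 signal (vertical axis, separate for each gene) of 8 genes in each of 9 Tam-Idh1-KI and 9 control mice, with filled circles for the first hybridisation day, open triangles for the second and a bar at the group median. The same 2 Tam-Idh1-KI mice, replicates 3 and 4, lie at the top in every gene shown but Nfasc, and the groups overlap in all 8 genes.

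The genes were then followed by mouse. For each mouse the 28 log2 values were set against the control mean of the same day and averaged. The mean was -0.29 at the lowest, 0.14 at the median and 0.73 at the highest in Tam-Idh1-KI mice, against -0.17, -0.0098 and 0.27 in control mice, and it was above 0 in 7 of 9 Tam-Idh1-KI mice. Tam-Idh1-KI replicates 3 and 4, at 0.73 and 0.68, were higher than every control mouse, and Tam-Idh1-KI replicates 1 and 6, at -0.22 and -0.29, were lower than every control mouse. All 4 were males of the first day, aged 5 or 6 months, and the other 5 Tam-Idh1-KI mice had means of 0.0046 to 0.31. In replicates 3 and 4, 27 of 28 genes each were above the control mean of the day, against 6 of 28 in replicate 1 and 5 of 28 in replicate 6.

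Replicate 3 was the highest of all 18 mice in 12 genes and replicate 4 in 11. Among control mice replicate 3 was the highest of its group in 14 genes and replicate 6 in 7. The mean raw signal of Tam-Idh1-KI replicates 3 and 4 was 599 and 607, inside the range of the other arrays, and 49.1% and 50.7% of their probes were detected. Without replicate 3 the median log2 fold change of the 28 genes was 0.12, and without replicate 4 it was 0.13, with 25 of 28 positive and 0 of 28 at an unadjusted p under 0.05 in each case. With both left out it was -0.03 with 12 of 28 positive, and with the low replicates 1 and 6 left out instead it was 0.44 with 27 positive. These mice were chosen after their values were seen and for those values, so these values are a description, with no test.

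**Figure D3:**
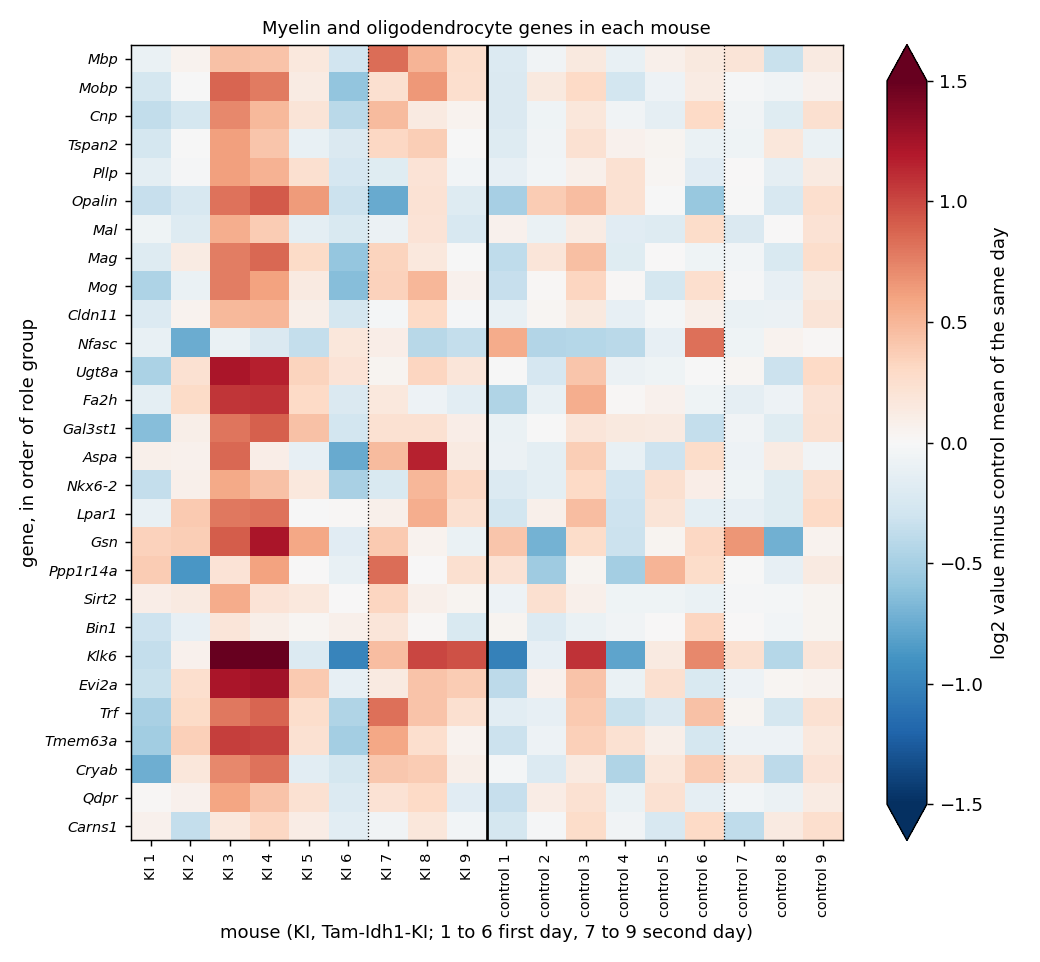
Heat map of the 28 genes (rows, by role group) in 18 mice (columns, Tam-Idh1-KI left of the black line and control right of it), coloured by the log2 value minus the control mean of the same day. Tam-Idh1-KI replicates 3 and 4 are above 0 in 27 of 28 rows each, and replicates 1 and 6 in 6 and 5 of 28 rows.

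The spread between mice was wider in Tam-Idh1-KI SVZ. The standard deviation within hybridisation days was larger in Tam-Idh1-KI than in control mice for 25 of 28 genes, where it was larger for 50.2% of all genes. Its median over the 28 genes was 0.45 in Tam-Idh1-KI and 0.24 in control mice, while over all genes it was 0.22 in each group. For *Ugt8a* it was 0.55 in Tam-Idh1-KI and 0.25 in control mice. For *Mobp* it was 0.50 in Tam-Idh1-KI and 0.19 in control mice. The 3 genes with the narrower spread in Tam-Idh1-KI mice were *Nfasc* (0.30 in Tam-Idh1-KI, 0.47 in control mice), *Gsn* (0.43 and 0.52) and *Carns1* (0.22 and 0.27). The difference in spread was not tested.

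After genotype, day and sex were removed, most of the genes moved together from mouse to mouse. Over 378 pairs of genes and 18 mice the median Pearson r of the residuals was 0.64, 248 pairs were above 0.5 and 24 below 0. Each gene was also set against the mean of the other 27: r was 0.96 for *Mobp*, 0.95 for *Cldn11*, 0.94 for *Mog* and 0.92 for *Mag*, whose promoters are printed above. It was 0.42 for *Bin1*, 0.24 for *Ppp1r14a* and -0.15 for *Nfasc*, the 3 lowest. The closest pair was *Klk6* and *Mobp* (r = 0.96) and the most opposed *Nfasc* and *Opalin* (r = -0.58). Within Tam-Idh1-KI mice alone the median r of the pairs was 0.77, and within control mice alone it was 0.28. These r values are descriptions: the genes of a pair share the array, the dissection and its normalization.

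Among all other genes, the 10 whose residuals followed the mean of the 28 most closely over 18 mice were *Bcas1*, *Ctsk*, *Tmem88b*, *Gltp*, *Plekhb1*, *Ndrg1*, *Slc44a1*, *Hapln2*, *Pigh* and *Anln*, with r of 0.94 to 0.90. Of these 7, all but *Ctsk*, *Gltp* and *Pigh*, stood on a list of other oligodendrocyte genes drawn up by name. The 5 most opposed were *Lrrfip1*, *Ppp1r14c*, *Maged1*, *Lonrf2* and *Fbxo46*, with r of -0.83 to -0.78. The r of the 10 ran from 0.91 to 0.98 within Tam-Idh1-KI mice alone and from 0.64 to 0.90 within control mice alone. The 10 were picked for high r over these same 18 mice, so high r within each group follows in part from that choice. None of the 15 passed the threshold between genotypes, and the largest log2 fold change among the 10 was that of *Ctsk* (0.47, SE 0.18, adjusted p = 0.421).

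The list of other oligodendrocyte genes held 40 names, of which 32 were tested. Of these 24 were positive, with a median log2 fold change of 0.13 and 0 past the threshold. At an unadjusted p under 0.05, 3 of 32 were higher and 0 lower, where 6.43% of all genes were higher and 3.14% lower. *Slc44a1*, a choline transporter, was at 0.38 (SE 0.12, adjusted p = 0.301), *Cdc42ep1*, an effector of the GTPase Cdc42, at 0.41 (SE 0.13) and *Bcas1*, a marker of cells that begin to myelinate, at 0.36 (SE 0.16). The mean residual of this list followed that of the 28 genes over 18 mice (r = 0.94, rho = 0.76), at r = 0.88 without the 2 mice farthest from the median, Tam-Idh1-KI replicates 6 and 1. Within control mice r was 0.56.

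Genes of precursor cells lay nearer to 0. Of 16 tested genes of oligodendrocyte precursors 9 were positive, with a median of 0.033, and 0 passed. At an unadjusted p under 0.05, 2 of the 16 were higher and 1 lower, where 6.43% of all genes were higher and 3.14% lower. *Nkx2-2*, a homeobox factor of the lineage, was at 0.47 (SE 0.16, adjusted p = 0.328) and *Enpp6*, which marks cells about to myelinate, at 0.62 (SE 0.26, adjusted p = 0.455), while *Vcan*, a proteoglycan of precursors, was at -0.29 (SE 0.13, adjusted p = 0.512). Of 14 genes of the node and paranode of axons 5 were positive, with a median of -0.10, and at that unadjusted p 0 were higher and 1 lower. *Scn2a*, a sodium channel gene, was at -0.35 (SE 0.12, adjusted p = 0.328) and below the control mean of the day in all 9 Tam-Idh1-KI mice. Of 25 genes of cholesterol and fatty acid synthesis, which feeds myelin membrane, 18 were positive, with a median of 0.033. None of the 25 was at an unadjusted p under 0.05 in either direction, where 6.43% of all genes were higher and 3.14% lower.

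**Figure D4:**
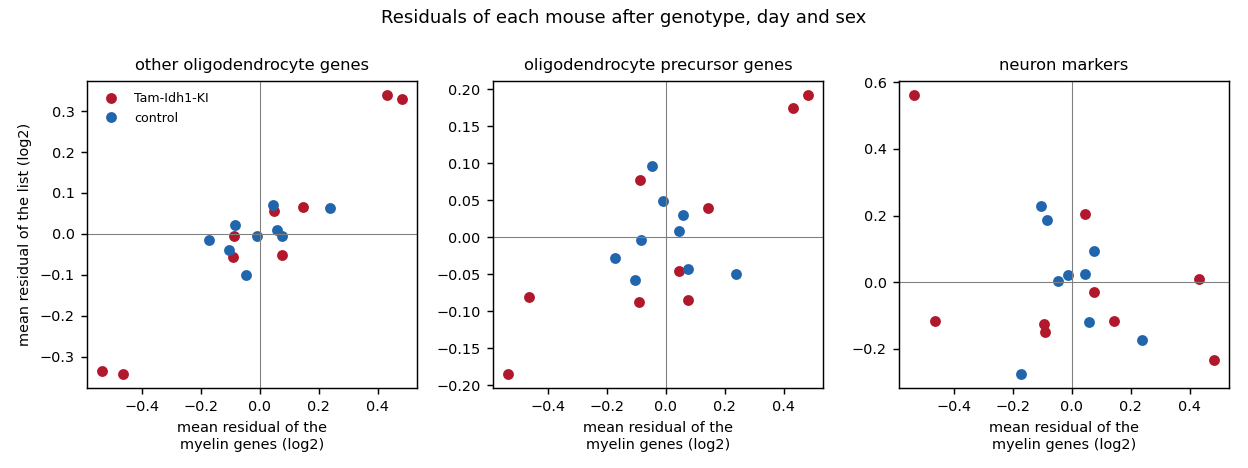
Mean residual of 3 gene lists (vertical axes, log2) against the mean residual of the 28 myelin and oligodendrocyte genes (horizontal axes, log2) in each of 18 mice, Tam-Idh1-KI in red and control in blue. Other oligodendrocyte genes rise with the 28 genes (r = 0.94), and 4 Tam-Idh1-KI mice lie at the ends of the horizontal axis.

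Markers of other cells of the dissected region also leaned with genotype, and their part in the lean of the myelin genes was not tested. No gene of any marker list passed the threshold. Of 13 tested ependymal markers (16 listed) 12 were positive, with a median log2 fold change of 0.31 and summed normalized signals of 8065 to 21532 in Tam-Idh1-KI mice and 8943 to 15407 in control mice. All 11 tested neuroblast markers of 13 listed were positive (median 0.25, sums 23623 to 35464 in Tam-Idh1-KI and 21803 to 30942 in control mice). All 11 tested neural stem cell markers of 13 listed were also positive (median 0.29, sums 4036 to 5035 in Tam-Idh1-KI and 3316 to 4916 in control mice). At an unadjusted p under 0.05, 6 genes of each of these 3 lists were higher, where 6.43% of all genes were. Lower at that p was 1 ependymal marker, *Mia* (-0.64, SE 0.17), where 3.14% of all genes were lower. Of 12 tested neuron markers (14 listed) 2 were positive, with a median of -0.10 and sums of 93053 to 140106 in Tam-Idh1-KI and 99593 to 119974 in control mice. The 28 myelin genes summed to 45370 to 105200 (median 59419) in Tam-Idh1-KI and 38591 to 79922 (median 62601) in control mice. The Tam-Idh1-KI median was thus the lower, and none of these sums is adjusted for day or sex.

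Of the remaining lists, the median was -0.11 for 9 striatal neuron markers, 3 of them positive, and -0.04 for 12 astrocyte markers, 5 of them positive. It was 0.067 for 10 microglia markers, 9 of them positive, and 0.069 for 13 endothelial and mural cell markers, 10 of them positive. For 7 choroid plexus markers it was -0.10, with 2 positive. At an unadjusted p under 0.05, 3 of the 12 astrocyte markers were lower and 1 was higher. At that p 3 of the 13 endothelial and mural cell and 2 of the 7 choroid plexus markers were higher and 0 lower. None of the neuron, striatal neuron or microglia markers was at that p in either direction. Over all genes 6.43% were higher and 3.14% lower at that p. By mouse, Tam-Idh1-KI replicate 6, the lowest for myelin genes, had a mean neuron residual of 0.56 and a mean ependymal residual of -0.49. Replicate 1, the next lowest, went the other way in both, at -0.12 for neuron and 0.13 for ependymal markers. Its microglia residual was -0.49 and its choroid plexus residual 0.45, against 0.038 and -0.25 in replicate 6. In replicates 3 and 4 the neuron residuals were -0.23 and 0.0096. Over 18 mice the neuron mean and the mean of the 28 genes had r = -0.43 (rho = -0.21), and r = -0.23 without replicates 6 and 1, the 2 mice farthest from the median. For the other lists the r was positive in most cases: 0.73 for precursor genes (0.60 without those 2 mice), 0.49 for neural stem cell (0.44), microglia (0.39) and astrocyte (0.31) markers each, 0.43 for striatal neuron (0.37), 0.36 for endothelial and mural cell (0.17), 0.35 for ependymal (0.16) and 0.30 for neuroblast markers (-0.01). It was 0.41 for cholesterol and fatty acid synthesis (0.51), -0.15 for choroid plexus (-0.10) and -0.26 for node and paranode genes (0.13). These are descriptions over mice that share arrays and dissection, with no test.

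**Figure D5:**
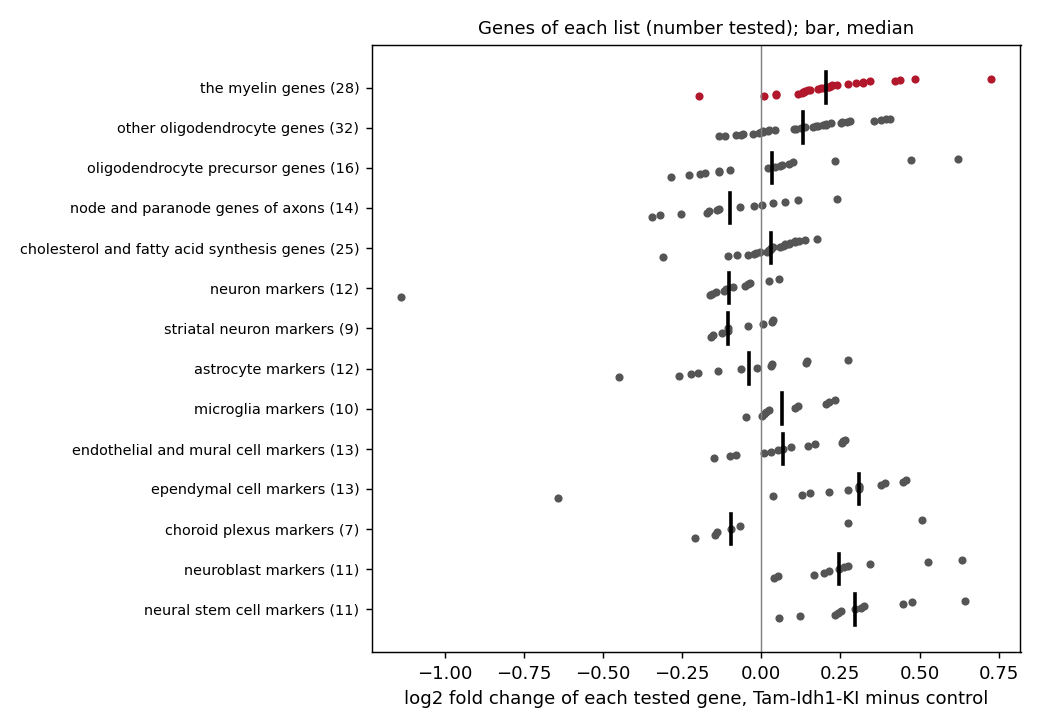
Log2 fold change (Tam-Idh1-KI minus control, horizontal axis) of every tested gene of the myelin set (red) and of 13 lists drawn up by name (grey), with the number tested and a bar at the median. The myelin genes (median 0.21) sit between other oligodendrocyte genes (0.13) and the ependymal (0.31), neuroblast (0.25) and neural stem cell (0.29) markers.

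The size of the genotype difference was compared between days and between sexes. In limma's interaction of genotype with day 0 of 28 genes passed and 1 of 28 was at an unadjusted p under 0.05, where 2.9% of all genes were. That gene was *Mbp*, whose difference was larger on the second day by 0.55 (SE 0.25, adjusted p = 1). In the interaction with sex 0 of 28 were at an unadjusted p under 0.05, where 3.38% of all genes were. The median fitted difference of the 28 was 0.16 on the first day alone and 0.37 on the second day alone, 0.27 in females and 0.15 in males. Tam-Idh1-KI males were hybridised on the first day only, and the second-day value rests on 3 mice per group and is adjusted for sex with 1 control female. Without that adjustment the group means of the second day differed by a median of 0.19 over the 28 genes, with 22 of 28 positive.

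Sex and day themselves were set beside genotype. The difference of females minus males was negative for 27 of 28 genes, where it was negative for 48.7% of all genes, with a median of -0.12. None of the 28 was at an unadjusted p under 0.05 for sex, where 3.43% of all genes were, and the largest was that of *Klk6* (-0.64, SE 0.42). Between hybridisation days the genes differed far more: on the second day 16 of 28 were lower and 3 higher at an adjusted p under 0.05, where 27.1% of all genes were lower and 36.8% higher. *Gsn* fell by 1.46 (SE 0.22, adjusted p = 1.64e-05), *Mog* by 1.27 (SE 0.19, adjusted p = 1.68e-05) and *Mal* by 1.21 (SE 0.13, adjusted p = 3.8e-07) on the log2 scale, and the 3 that rose were *Nkx6-2* (0.75), *Lpar1* (0.68) and *Pllp* (0.44). *Cldn11* (0.0013, SE 0.12) and *Klk6* (-0.01, SE 0.43) did not pass between days.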

How the data were processed

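RNA from the SVZ of 18 mice was read on Illumina Mouse WG6-v2 arrays. For each probe the authors deposited a linear, unnormalized intensity and a detection p-value. A second deposited table held log2 values that the authors had processed, which rose with the signals (Spearman rho 1, slopes of 1.02 to 1.03 against log2 signal above 1000, medians of 6.22 to 6.30), are not centred by gene, and whose normalization is not known here. The submitters' processing notes name GenomeStudio, with no version given in the sources used here. Of 45281 probes, 34885 had 1 gene symbol, 18 several and 10378 none; those with several named no gene. By Entrez ID, 34807 were found in the reference table and 0 symbols changed.

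Signals were corrected with neqc of limma 3.58.1 in R 4.3.3 (offset 16, quantile, log2). Differences of dim probes depended on this step. For *Gsn* the log2 fold change was 0.48 here, 0.37 at an offset of 50 and 0.24 without background correction. For *Klk6* it was 0.73, 0.60 and 0.43 in the same order. Probes entered the fit where the detection p was under 0.05 on 9 or more of 18 arrays (21644, of which 18460 had 1 symbol), and each of 11465 genes was taken from its brightest kept probe. limma (lmFit, eBayes) fitted genotype, day and sex over 18 arrays with Benjamini-Hochberg adjustment over all genes at 0.05. Arrays correlated at 0.955 to 0.995, and no 2 were copies. The pipeline was tested on simulated data. The simulated errors were drawn separately for each gene with the same spread in both groups. It therefore does not cover genes that vary together or whose spread differs between groups. The number of arrays limits the precision, and 0 sample columns were left unused. Array slide is not named in the files.

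All 33 genes are named. The lowest, median and highest values of each group are given for *Mbp*, *Mog*, *Mag*, *Mobp*, *Cnp*, *Cldn11* and *Ugt8a*. They are also given for the 4 smallest p in each direction and for genes whose probes disagree. *Myrf* was planned with these but did not pass the detection filter. *Klk6* and *Sirt2* were singled out after their values were seen. The genes and lists were chosen with earlier results of these data known. Mice are numbered 1 to 9 within each group; the labels give no litter, and the methods speak of paired littermates. Deviations of same-numbered mice from their group mean correlated over 0.1 in 9 of 9 pairs (mean 0.481), and within days in 4 of 9 (mean 0.05), so the numbers share the day and may share no more. One alternative fitted the replicate number as a block. Others covered background, scaling, filter, probe choice, covariates, weights, single days and sexes, and each array left out. Promoters are RefSeq sequences on GRCm38.p6.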

Additional observations from a re-analysis of the deposited data

Results flagged for a closer look

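Groups of 9 mice were searched for a mouse far from the rest of its group, over 28 genes and their mean in each group, after the control mean of the day was subtracted. Chance flags about 1 in 20 such groups. One value stood out: *Bin1* in control replicate 6, at 0.32 above the control mean of the first day. The same mouse had the highest *Nfasc* value of the 18. Tam-Idh1-KI replicates 3 and 4 lie too close to each other for this search, which looks for a single far value.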

How the results depend on the processing

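Over 18 fits that each left out 1 mouse, the median log2 fold change of the 28 genes ran from 0.12 to 0.28, and over 19 other settings from 0.15 to 0.37 (second day alone, adjusted for sex with 1 control female; 0.19 as a plain difference of means), positive in every one, with 0 genes of the set past the threshold in any of these 37 fits and a smallest adjusted p of 0.0789 (array weights). The median of all genes moved by over 0.1 only under median scaling, to 0.12, where that of the set was 0.32. With the replicate number as a block in place of day, the median was 0.17, 26 of 28 genes were positive and 8 genes of the whole table passed, against 20 without the block. The count over all genes was 8 with genotype only, 61 with array weights, 4 on the first day alone, 0 on the second day alone, 0 in females, 0 in males, 37 at an adjusted p under 0.10, 3 by the methods' test after Benjamini-Hochberg and 538 by it unadjusted, and ran from 4 (without control replicate 1 or 8) to 37 (without Tam-Idh1-KI replicate 6). Why these counts moved was not tested.

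Of 1090 values of single genes under an alternative, 1052 kept their sign and 38 did not. *Bin1* was at -0.0080 with genotype only, without sex and by the methods' test, -0.027 with the replicate block, -0.0087 on the first day and -0.031 in males. On the second day *Mal* was at -0.047, *Opalin* at -0.00075 and *Carns1* at -0.11; in females *Mal* was at -0.11 and *Carns1* at -0.037; in males *Mog* was at -0.014 and *Nkx6-2* at -0.043. With 1 mouse left out *Mal* ran from -0.029 to 0.10, *Bin1* from -0.025 to 0.066 and *Carns1* from -0.0032 to 0.088.

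Chosen after seeing the data, leaving out Tam-Idh1-KI replicates 3 and 4 gave a median of -0.025, and leaving out replicates 1 and 6 gave 0.44. Without replicates 3 and 4 *Mobp* was at -0.035, *Mal* at -0.12, *Pllp* at -0.031, *Tspan2* at -0.036, *Opalin* at -0.14, *Cnp* at -0.055, *Mog* at -0.090, *Mag* at -0.024, *Cldn11* at -0.044, *Gal3st1* at -0.050, *Nkx6-2* at -0.037, *Bin1* at -0.041, *Carns1* at -0.026, *Cryab* at -0.053 and *Tmem63a* at -0.014. In the interactions and for sex, 0 genes of the set passed under the 4 settings run. Without background correction *Gsn* was at 0.24 (0.48 with it), *Aspa* at 0.07 (0.21), *Klk6* at 0.43 (0.73), *Ppp1r14a* at 0.12 (0.21), *Nfasc* at -0.11 (-0.20) and *Carns1* at 0.024 (0.047), which limits how far these values can be read.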
